A study of Homo sapiens with 32 samples.

Results

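GAGE, PAGE, XAGE, CT45, CT47, CSAG and SPANX are families of cancer/testis antigen genes on the X chromosome, most of them present as several near-identical copies. The members were all gene symbols in the count tables whose names begin with GAGE, PAGE, XAGE, CT45A, CT47A, CT47B, CSAG or SPANX with a copy number or letter, 64 symbols of the 25559 in each table. GAGE had 16 symbols, PAGE 6, XAGE 9, CT45 6, CT47 12, CSAG 3 and SPANX 12. The SPANX symbols include SPANXA2-OT1, a long non-coding RNA gene that the name rule takes in. Copies of a family can share reads, so each family is given as the sum over its symbols, as CPM, counts scaled to the library total, and single symbols are given as uncertain.

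Cancer/testis antigens are made in male germ cells, are silent in most other adult tissues, and can be switched on in tumours, where peptides of some of them are seen by cytotoxic T cells. Their promoters are commonly methylated at CG dinucleotides in somatic cells, and loss of this methylation is a known route to their expression. Azacitidine is a cytidine analogue that traps DNA methyltransferases after it is built into DNA, and romidepsin is an inhibitor of class I histone deacetylases.

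Messenger RNA was measured in 4 human T-cell lines, PF382 (T-cell acute lymphoblastic leukemia), TLOm1 (adult T-cell leukemia), HH and H9 (both cutaneous T-cell lymphoma). Each line gave 8 libraries after 96 hours in log-phase culture, with 1 library per condition, so the 4 lines served as replicates. Romidepsin was given once at the start and azacitidine every 24 hours. The combination groups had romidepsin with azacitidine, the azacitidine groups had azacitidine alone, the romidepsin group had romidepsin alone, and the untreated group had neither. Azacitidine was at 125, 250 and 500 nM in PF382 and TLOm1 and at 50, 125 and 250 nM in HH and H9, so 250 nM was the top dose that every line received. The romidepsin dose was 1.25 nM in PF382 and 1 nM in TLOm1 and H9. For HH it is titled 1 nM as a single drug and 1.25 nM with azacitidine, so in HH the combination and the single drug are not at 1 romidepsin dose. Doses of the combinations carry no unit in the titles and were read as nM. All 4 are established lines grown in culture, and the labels name no second culture of a line.

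The promoters of the symbols that carried most counts are shown because the compared drugs act on DNA methylation and histone acetylation, and because they show how alike the copies are. Each stretch is 300 bases of RefSeq sequence on GRCh38.p14, with 250 bases before the annotated start and 50 after it, written in the direction of the gene with every CG dinucleotide in capitals. GAGE1 lies at chrX:49598770-49599069 on the plus strand, and the same 300 letters stand before GAGE2A at chrX:49589246-49589545. PAGE1 lies at chrX:49695935-49696234 on the minus strand, PAGE4 at chrX:49829053-49829352, PAGE2B at chrX:55074780-55075079, PAGE2 at chrX:55088768-55089067 and PAGE5 at chrX:55220096-55220395, these 4 on the plus strand, and CSAG1 at chrX:152733672-152733971 on the minus strand.
GAGE1: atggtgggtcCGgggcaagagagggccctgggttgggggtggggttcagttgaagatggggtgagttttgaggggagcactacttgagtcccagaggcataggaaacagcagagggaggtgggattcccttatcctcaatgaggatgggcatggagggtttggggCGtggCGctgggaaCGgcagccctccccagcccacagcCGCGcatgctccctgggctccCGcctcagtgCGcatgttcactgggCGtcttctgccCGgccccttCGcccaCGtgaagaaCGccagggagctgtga
PAGE1: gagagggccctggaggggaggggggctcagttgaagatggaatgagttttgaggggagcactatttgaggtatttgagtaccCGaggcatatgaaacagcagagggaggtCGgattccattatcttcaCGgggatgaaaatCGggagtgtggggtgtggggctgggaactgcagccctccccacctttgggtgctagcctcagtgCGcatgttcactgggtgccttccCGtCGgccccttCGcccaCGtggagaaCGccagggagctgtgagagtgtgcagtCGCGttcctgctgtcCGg
PAGE4: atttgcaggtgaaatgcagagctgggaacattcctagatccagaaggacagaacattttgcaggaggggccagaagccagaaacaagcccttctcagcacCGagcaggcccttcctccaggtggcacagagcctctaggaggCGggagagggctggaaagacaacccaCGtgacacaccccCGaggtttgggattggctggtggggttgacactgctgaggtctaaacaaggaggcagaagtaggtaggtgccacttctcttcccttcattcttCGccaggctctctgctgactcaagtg
PAGE2B: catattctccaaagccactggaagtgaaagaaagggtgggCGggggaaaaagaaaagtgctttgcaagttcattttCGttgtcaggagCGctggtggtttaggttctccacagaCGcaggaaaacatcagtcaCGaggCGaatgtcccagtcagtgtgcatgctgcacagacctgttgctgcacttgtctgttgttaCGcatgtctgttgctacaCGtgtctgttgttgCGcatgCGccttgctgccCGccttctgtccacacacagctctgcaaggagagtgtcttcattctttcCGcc
PAGE2: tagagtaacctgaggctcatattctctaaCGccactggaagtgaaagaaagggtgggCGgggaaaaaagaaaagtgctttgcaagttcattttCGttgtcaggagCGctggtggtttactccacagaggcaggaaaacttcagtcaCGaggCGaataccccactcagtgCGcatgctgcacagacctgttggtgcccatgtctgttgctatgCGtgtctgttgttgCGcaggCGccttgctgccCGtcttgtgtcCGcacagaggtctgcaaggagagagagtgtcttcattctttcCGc
PAGE5: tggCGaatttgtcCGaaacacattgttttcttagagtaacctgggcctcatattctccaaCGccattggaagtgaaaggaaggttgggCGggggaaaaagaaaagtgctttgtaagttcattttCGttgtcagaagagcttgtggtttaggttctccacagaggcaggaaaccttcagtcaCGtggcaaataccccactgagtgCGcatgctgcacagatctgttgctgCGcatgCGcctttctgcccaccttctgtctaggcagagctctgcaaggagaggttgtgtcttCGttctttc
CSAG1: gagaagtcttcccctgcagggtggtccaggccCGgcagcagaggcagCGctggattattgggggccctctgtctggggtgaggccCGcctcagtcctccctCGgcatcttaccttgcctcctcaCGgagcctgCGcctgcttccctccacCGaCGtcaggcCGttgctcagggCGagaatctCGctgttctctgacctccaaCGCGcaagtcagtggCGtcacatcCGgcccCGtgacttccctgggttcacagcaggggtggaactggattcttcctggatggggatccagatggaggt

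RefSeq promoters were at hand for 34 of the 64 symbols, and they held 1 to 20 CG dinucleotides with a median of 13, against a median of 14 over all 35116 promoters of that table. The printed promoters held 13 in GAGE1, 13 in PAGE1, 5 in PAGE4, 12 in PAGE2B, 13 in PAGE2, 10 in PAGE5 and 16 in CSAG1. 8 GAGE symbols had the same 300 bases in at least 1 annotated start, among them GAGE1 and GAGE2A. PAGE2B and PAGE2 were identical at 86.7% of bases, PAGE2 and PAGE5 at 78.3%, and PAGE2B and PAGE5 at 74.0%, counted in pairwise alignments. The letters CACGTG, which read the same on both strands, stood in the promoters of 16 member symbols (11 GAGE, 4 PAGE and 1 XAGE) and in 7.26% of all promoters. In the sequences above the letters CACGTG appear as caCGtg in GAGE1, PAGE1, PAGE4, PAGE2B and PAGE5, and they are not in the PAGE2 window. CCGGAA and GCGGGAA, searched on both strands, stood in no member promoter, against 17.2% and 6.55% of all promoters.

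Library totals ran from 16175077 to 32496676 counts, and a floor of 3 counts was 0.0923 to 0.186 CPM. All 12 T-cell markers (CD3D, CD3E, CD4, LCK and others) reached 10 counts in some library. Their summed level was 1640 to 2590 CPM in the combination at 250 nM, 1670 to 2580 CPM with azacitidine at 250 nM and 1880 to 2560 CPM in untreated cells. CD3E, CD247, CD4, ZAP70 and PTPRC were at 14.0 CPM or more in each untreated line, but others were low in single lines. Untreated TLOm1 had CD3D at 0.731 CPM, CD3G at 0.122, CD5 at 0.447, CD7 at 0.244, CD28 at 0.325 and LCK at 1.34. LCK was at 0.0 and CD7 at 0.0823 CPM in untreated HH, and CD2 was at 0.46 CPM in untreated H9. Of 10 germ cell markers 5 reached 10 counts in some library, and PIWIL1, TNP1 and PRM1, which are made in late male germ cells, were at 0 in all 32 libraries. The germ cell sum was 4.35 to 27.1 CPM in the combination at 250 nM and 4.59 to 42.8 CPM with azacitidine at 250 nM, against 2.06 to 4.91 CPM in untreated cells. DAZL, a germ cell RNA-binding protein, gave 683 counts in the combination, 1463 with azacitidine and 21 in untreated cells. Of the other germ cell markers DDX4 gave 249 counts in the combination, fewer with azacitidine than in untreated cells, and 110 in untreated cells. POU5F1 gave 153 counts in the combination, 157 with azacitidine and 148 in untreated cells, SYCP3 107, 130 and 72, STRA8 17, 19 and 0, and ACR 3, 2 and 5 in the same groups. The sum was thus higher mainly through DAZL, and its part in the antigen sums was not tested. Some markers of other cell types were also higher with the drugs. The median epithelial sum was 146 CPM in the combination, 92.4 CPM with azacitidine and 26.9 CPM in untreated cells. In these groups KRT8 had 5153, 3230 and 339 counts and KRT18 1356, 656 and 77. EPCAM had 3149, 4401 and 2482 counts, CDH1 1075, 1328 and 1133 and KRT19 2, 1 and 0. The median fibroblast sum was 26.2 CPM in the combination, 14.1 CPM with azacitidine and 5.9 CPM in untreated cells. COL1A1 had 1346, 686 and 168 counts, COL1A2 15, 2 and 1 and LUM 44, 3 and 10, while PDGFRB had 1067, 1908 and 2151 and DCN 18, 25 and 118. The ranges over lines of the B cell, myeloid, epithelial and fibroblast sums overlapped between the groups, being wide between lines, and their part in the antigen sums was not tested. In bulk RNA, fewer cells that make a transcript and less of it per cell cannot be told apart.

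Of the 64 symbols 35 had no count in any library and 29 had at least 1, and 10 had at least 10 counts in some library. The members took 6510 counts in all, of which 3143 came from PF382, 2400 from TLOm1, 727 from HH and 240 from H9. PAGE took 4675 of them, CSAG 688, CT45 647, GAGE 407, SPANX 47, XAGE 42 and CT47 only 4. In PAGE, GAGE, CT45, CSAG and XAGE 1 symbol led. PAGE5 held 64.6% of the PAGE counts, GAGE1 71.5% of GAGE, CT45A5 94.0% of CT45, CSAG1 98.5% of CSAG and XAGE5 88.1% of XAGE. In SPANX no single symbol led, as SPANXN1 and SPANXN3 held 31.9% each, and the 4 CT47 counts fell on CT47B1. Counts are not corrected for transcript length, so these shares do not rank the symbols by level.

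**Figure D1:**
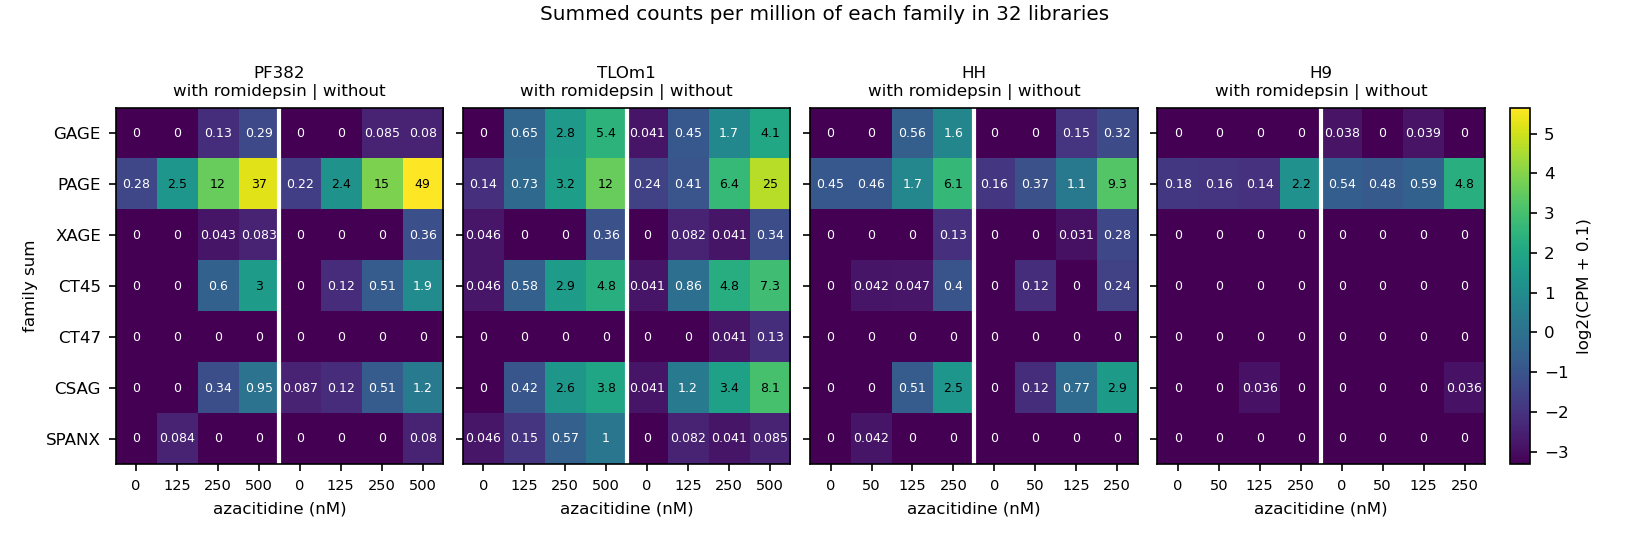
Summed CPM of the 7 families (rows) in the 32 libraries (columns, 1 panel per cell line, azacitidine in nM, with romidepsin left of the white line and without it on the right), coloured by log2(CPM + 0.1) with the CPM printed in each cell. PAGE was counted in all 32 libraries and reached 49.3 CPM in PF382 at 500 nM, while H9 held 4 counts outside PAGE, 2 of GAGE and 2 of CSAG.

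With azacitidine at 250 nM, 4 family sums rose over untreated cells: PAGE, GAGE, CT45 and CSAG. In this comparison 3.82% of the 17796 rows tested were called higher by edgeR's quasi-likelihood test at a Benjamini-Hochberg adjusted p under 0.05 over all rows. SPANX, with 1 count in azacitidine and none in untreated cells, did not pass, and XAGE and CT47 were too low to be tested. Among single symbols 7 rose, GAGE1, PAGE1, PAGE2B, PAGE2, PAGE5, CT45A5 and CSAG1, where 3.85% of the 17801 symbols tested were called higher. Only 10 member symbols passed the filter on low counts, and they passed through their counts in azacitidine libraries, so 7 is not a share of all 64 members. The GAGE, CT45 and CSAG sums, with 2, 1 and 3 counts over the untreated libraries, passed this filter in the same way. Thus 4 is not a share of all 7 families either. GAGE2A, GAGE2B and PAGE4 were tested and did not pass.

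The PAGE sum was 14.6 CPM in PF382, 6.36 in TLOm1, 9.27 in HH and 4.79 in H9 with azacitidine at 250 nM, against 0.218, 0.244, 0.1645 and 0.537 CPM in the same order of lines in untreated cells. Every treated library lay above every untreated one, and the PAGE sum averaged 8.75 ± 4.30 CPM with azacitidine and 0.291 ± 0.167 CPM in untreated cells (SD, n = 4 lines each). The log2 change was 4.70 ± 0.47 (SE, adjusted p = 2.42e-06). PAGE5 had 301, 62, 56 and 123 counts with azacitidine at 250 nM in PF382, TLOm1, HH and H9, against 1, 2, 1 and 8 counts in untreated cells. All 4 lines lay above all untreated libraries, and its log2 change was 5.30 ± 0.60 (SE, adjusted p = 9.55e-06). With 1 line left out, the log2 change lay between 4.29 (without PF382) and 5.51 (without H9) for the PAGE sum and between 4.47 (without PF382) and 6.55 (without H9) for PAGE5, called each time. PAGE2B had 28, 51, 117 and 6 counts with azacitidine, against 2, 2, 3 and 3 in untreated cells, a log2 change of 3.97 ± 0.66 (SE, adjusted p = 0.000745). PAGE2, its close copy, had 7, 11, 18 and 3 counts with azacitidine, against 1, 0, 0 and 3 in untreated cells, with an adjusted p of 0.0206. H9 did not exceed its own untreated library in PAGE2. PAGE1 had 4, 24 and 39 counts in PF382, TLOm1 and HH and none in H9 with azacitidine, against none in any untreated library (adjusted p = 0.00199). Set against 3 counts over the untreated group, PAGE1 was 21.8-fold higher, with counting error in the azacitidine counts left out. PAGE4, which encodes a disordered protein known from the prostate, had 3, 6, 0 and 0 counts with azacitidine and 1, 2, 0 and 0 in untreated cells (adjusted p = 0.325).

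The GAGE sum was 0.0849 CPM in PF382, 1.72 in TLOm1, 0.323 in HH and 0 in H9 with azacitidine at 250 nM, against 0, 0.0406, 0 and 0.0383 CPM in untreated cells. TLOm1 was highest, and the groups overlapped through H9. The untreated group held 2 GAGE counts, so the ratio of pooled CPM, 25.4, had a 95% exact interval of 6.68 to 215 for counting error (adjusted p = 0.0164). GAGE1, from which cytotoxic T cells are known to recognise peptides, had 2, 29, 8 and 0 counts in PF382, TLOm1, HH and H9, against none in untreated cells. Set against 3 counts over the untreated group, GAGE1 was 12.7-fold higher, with counting error in the azacitidine counts left out (adjusted p = 0.00469). GAGE2A and GAGE2B had 9 and 4 counts in TLOm1 and none in the other azacitidine libraries at 250 nM, with adjusted p of 0.219 and 0.315.

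The CT45 sum was 0.5095 CPM in PF382, 4.76 in TLOm1, 0.242 in HH and 0 in H9 with azacitidine at 250 nM, against 0, 0.0406, 0 and 0 CPM in untreated cells. TLOm1 gave 116 of the 134 CT45 counts in these azacitidine libraries, H9 gave none, and the untreated group held 1 count. The ratio of pooled CPM was 131 with an interval of 23.1 to 5210 (adjusted p = 0.00118). CT45A5 took 120 of these counts, CT45A1 and CT45A4 took a few in TLOm1, and no count fell on CT45A2 or CT45A3. The CT45 copies were renumbered between genome builds, so which copy the CT45A5 reads came from is not settled.

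The CSAG sum was 0.5095 CPM in PF382, 3.365 in TLOm1, 2.86 in HH and 0.0363 in H9 with azacitidine at 250 nM, against 0.0873, 0.0406, 0 and 0 CPM in untreated cells. Each line lay above its own untreated library, in H9 by 1 count. The ratio of pooled CPM was 54 with an interval of 18.2 to 265 (adjusted p = 0.000164), and CSAG1 held 165 of the 166 counts (adjusted p = 0.000179).

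These calls rest on a spread pooled over all 32 libraries, with 19 residual degrees of freedom. With only the 8 libraries compared, no row of all 14347 tested was called. Without the cell line as a block PAGE was the single family called, among 2 of all 17796 rows. No member symbol was called then, where 1 of all 17801 symbols was. Without TLOm1, calls fell over all symbols from 1066 of 17801 to 606 of 17689, and over the family table from 1061 of 17796 to 593 of 17685. There 2 families (CSAG and PAGE) and 3 member symbols (CSAG1, PAGE2B and PAGE5) were called. The adjusted p was then 0.377 for GAGE, 0.111 for CT45, 0.172 for GAGE1, 0.0613 for PAGE1 and 0.126 for CT45A5. The fitted log2 changes of these 5 stayed positive with each line left out, from 2.81 for GAGE to 7.57 for PAGE1, though against 0 to 2 untreated counts they are no bounds. That of CSAG, against 3 untreated counts, lay between 4.57 and 6.77. The GAGE sum also missed the threshold with limma-voom (adjusted p = 0.0656), without PF382 (0.0526), without HH (0.0810) or without GAGE1 in the sum (0.305), and PAGE2 missed it without PF382 (0.0859), TLOm1 (0.149) or HH (0.218).

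Across the azacitidine doses, the same 4 family sums rose with each doubling of the dose, tested among the libraries with azacitidine within each line and with or without romidepsin. The change per doubling was 2.02 ± 0.13 on the log2 scale for PAGE (SE, adjusted p = 3.96e-09), 1.68 ± 0.23 for CT45 (adjusted p = 7.84e-05), 1.68 ± 0.16 for CSAG (adjusted p = 4.70e-07) and 1.57 ± 0.19 for GAGE (adjusted p = 1.20e-05). A change of 1 on this scale is a change in proportion to the dose. SPANX did not pass (0.59 ± 0.38, adjusted p = 0.265), and 16.5% of the rows tested were called higher in this fit. All 10 member symbols tested rose, where again 16.5% of all symbols were called higher. Those symbols, however, passed the filter by being counted at high doses, and the GAGE, CT45 and CSAG sums passed it through azacitidine libraries. The changes of the symbols ran from 1.13 ± 0.34 for GAGE2B to 2.39 ± 0.29 for PAGE2. GAGE2A and GAGE2B, counted almost wholly in TLOm1, were not called by DESeq2 (adjusted p = 0.929 and 0.943), and GAGE2B was not called by limma-voom (0.0939).

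PAGE5 counts were higher at each dose step than at the one before in all 8 series of 3 doses. In PF382 they were 57, 232 and 739 with romidepsin and 58, 301 and 967 without it at 125, 250 and 500 nM. In H9 they were 3, 4 and 46 with romidepsin and 9, 15 and 123 without it at 50, 125 and 250 nM. CSAG1 and PAGE1 were higher at each step in 6 of 8 series and CT45A5 and GAGE1 in 5 of 8. In the series whose highest-dose library reached 10 counts, this held in 6 of 6 for CSAG1 and PAGE1, 4 of 4 for CT45A5 and 3 of 3 for GAGE1. Series picked by their top dose are prone to rise, so these last shares are no test of a rise. In TLOm1 without romidepsin CSAG1 had 29, 82 and 191 counts at 125, 250 and 500 nM, CT45A5 had 21, 104 and 162, and GAGE1 had 7, 29 and 51.

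The lines differed in which families were counted, in levels that have no replicate within a line. H9 with azacitidine held 161 PAGE counts without romidepsin, of which 91.3% fell on PAGE5 (Wilson 95% interval 85.9 to 94.7%), and no count of PAGE1, PAGE4, XAGE, CT45, CT47 or SPANX in any of its 8 libraries. TLOm1 gave 330 of the 407 GAGE counts, 479 of the 647 CT45 counts, 443 of the 688 CSAG counts and 42 of the 47 SPANX counts. PF382 gave 2886 of the 4675 PAGE counts, and its GAGE sum stayed at 0.290 CPM or less. HH had 61 counts of GAGE1 in all and none of GAGE2A or GAGE2B, while TLOm1 had 217 of GAGE1, 65 of GAGE2A and 30 of GAGE2B. The counts by line sum all doses, and only PF382 and TLOm1 had libraries at 500 nM. At 500 nM PF382 held 1237 PAGE counts with azacitidine alone and 901 with the combination, and TLOm1 held 96 and 105 GAGE counts. With azacitidine alone at 250 nM, the top dose that every line received, PF382 gave 343 of the 860 PAGE counts. TLOm1 gave 42 of the 52 GAGE counts, 116 of the 134 CT45 counts and 82 of the 166 CSAG counts there.

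Within a line, azacitidine at any dose was tested against the 2 libraries without it, with libraries of other treatments standing in for replicates. In TLOm1 GAGE (log2 change 6.52 ± 1.73, adjusted p = 0.0146), CSAG (6.98 ± 1.98, adjusted p = 0.0182) and CT45 (6.19 ± 1.87, adjusted p = 0.0299) rose, where 11% of rows were called higher. These changes are fitted against at most 1 count in each of the 2 libraries without azacitidine and are not bounds. No family was called in PF382, HH or H9, where 5.92%, 4.06% and 2.82% of rows were called higher, and the adjusted p for PAGE was 0.0582 in PF382. The test that the azacitidine effect is equal in the 4 lines called no family (adjusted p 0.659 to 1), against 10.7% of all rows, so a difference between lines was not shown by this test. At an unadjusted p under 0.05 it also called none of the 5 families. All doses of a line were 1 term in this fit, so the rise with dose counted as spread, and the doses differed between lines. The SE of the PAGE change was 1.92 in H9 and 2.09 in TLOm1. With such spread the fit could not decide whether lines differ or whether a family rose in PF382, HH or H9.

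A slope for each line, a test chosen after seeing the data, gave a PAGE change per doubling of 1.99 ± 0.20 in PF382, 2.26 ± 0.24 in TLOm1, 1.99 ± 0.27 in HH and 1.81 ± 0.31 in H9 (SE, adjusted p at most 0.000920). CSAG rose in PF382 (1.71 ± 0.31), TLOm1 (1.34 ± 0.19) and HH (2.20 ± 0.26), CT45 in PF382 (2.32 ± 0.34) and TLOm1 (1.37 ± 0.24), and GAGE in TLOm1 (1.45 ± 0.20) and HH (1.96 ± 0.35), with adjusted p of at most 0.000459. In H9 PAGE alone passed, and CSAG had an adjusted p of 0.653 there. The share of rows called higher was 12.2% in PF382, 19.5% in TLOm1, 10.8% in HH and 7.54% in H9. The slopes of no family differed between lines (adjusted p 0.261 to 0.847), where 30.2% of rows were called.

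Romidepsin alone called no family and no member symbol. The edgeR test called 3 rows higher among all symbols and 3 in the table with family sums, 0.0169% in both, and DESeq2 and limma-voom called 9 and 7 rows of the family table and none of the 5 families. No family or member had an unadjusted p under 0.05 either. The PAGE sum was 0.279 CPM in PF382, 0.139 in TLOm1, 0.450 in HH and 0.175 in H9 with romidepsin, against 0.218, 0.244, 0.1645 and 0.537 CPM in untreated cells, higher in 2 lines and lower in 2. GAGE and CSAG had no count in any romidepsin library, and 2 and 3 counts in untreated cells, which is within the floor. PAGE2B had 9 counts in HH with romidepsin and 3 in untreated HH cells, and 4, 1 and 0 with romidepsin in PF382, TLOm1 and H9.

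With the combination at 250 nM, the same 4 families rose over untreated cells, where 14.2% of rows in the family table were called higher. PAGE had a log2 change of 3.95 ± 0.47 (SE, adjusted p = 9.24e-06). GAGE had a ratio of pooled CPM of 53.5 with an interval of 14.4 to 448 (adjusted p = 0.000629), CT45 one of 92.6 with an interval of 16.2 to 3700 (adjusted p = 0.000477), and CSAG one of 43.7 with an interval of 14.6 to 215 (adjusted p = 0.000122). SPANX had 12 counts, all in TLOm1, and did not pass (adjusted p = 0.0876). Set against 3 counts over the untreated group, SPANX was 4.41-fold higher, with counting error in the 12 counts left out. Of the single symbols GAGE1, PAGE1, PAGE4, PAGE2B, PAGE5, CT45A5 and CSAG1 rose, 7 where 14.2% of all symbols were called higher. These symbols and the GAGE, CT45 and CSAG sums passed the filter through azacitidine libraries, so neither number is a share of all members or families. PAGE4 had 17, 10, 1 and 0 counts in PF382, TLOm1, HH and H9 with the combination, against 1, 2, 0 and 0 in untreated cells, a ratio of 10.3 with an interval of 3.18 to 52.9 (adjusted p = 0.00481). Its call was lost without PF382 (adjusted p = 0.108) or TLOm1 (0.0616), and that of PAGE2B (adjusted p = 0.0449) without PF382 (0.153), TLOm1 (0.101) or HH (0.223) and with DESeq2 (0.102). PAGE2 did not pass (adjusted p = 0.102), and it did without H9 (0.0165) and with limma-voom (0.0218). With only the 8 libraries compared none of these families or symbols was called (22 of 14499 rows were). Without the cell line block PAGE alone among them was (6 of 17796 rows were). The comparisons with untreated cells share those 4 libraries.

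Adding romidepsin to azacitidine at 250 nM left every family sum short of the threshold, where 5.66% of rows were called in either direction. The PAGE sum was 11.7 CPM in PF382, 3.19 in TLOm1, 6.11 in HH and 2.22 in H9 with the combination, against 14.6, 6.36, 9.27 and 4.79 CPM with azacitidine alone. It was lower in 4 of 4 lines, with a log2 change of -0.74 ± 0.36 (SE, adjusted p = 0.220). At 125 nM the PAGE sum was higher with the combination in 3 of 4 lines, at 119 counts over the lines against 122 with azacitidine alone, a ratio of pooled CPM of 1.06 with an interval of 0.818 to 1.38. The GAGE sum was 0.128, 2.76, 1.62 and 0 CPM with the combination, against 0.0849, 1.72, 0.323 and 0 CPM with azacitidine alone, higher in 3 of 4 lines (log2 change 1.17 ± 0.60, adjusted p = 0.269). CT45 was at 0.597, 2.90, 0.404 and 0 CPM with the combination, against 0.5095, 4.76, 0.242 and 0 CPM with azacitidine, lower in TLOm1 and higher in PF382 and HH (adjusted p = 0.918). CSAG was at 0.341, 2.615, 2.515 and 0 CPM with the combination, against 0.5095, 3.365, 2.86 and 0.0363 CPM with azacitidine (log2 change -0.39 ± 0.44, adjusted p = 0.654). The departure from the sum of the single-drug changes called no family and no other row by edgeR (0% of 17796), which gave 594 rows and no family an unadjusted p under 0.05. Among member symbols PAGE4 and PAGE2B had unadjusted p of 0.0471 and 0.0334, with adjusted p of 1. DESeq2 and limma-voom called none either, with 564 and 624 rows and none of the 5 families at an unadjusted p under 0.05. GAGE, CT45, CSAG and SPANX had 0, 1, 0 and 1 counts with romidepsin alone and 2, 1, 3 and 0 in untreated cells. So few counts do not fix the change with romidepsin alone, so the test could not decide on a departure in these families. In the same 2 groups PAGE4 had 1 and 3 counts and PAGE2B 14 and 10.

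Among single symbols PAGE2B fell and no other member was called, where 2.24% of symbols were called lower and 3.43% higher. PAGE2B had 12, 6, 26 and 2 counts in PF382, TLOm1, HH and H9 with the combination, against 28, 51, 117 and 6 with azacitidine alone, lower in 4 of 4 lines. The log2 change was -1.92 ± 0.53 (SE, adjusted p = 0.0347). The call was lost with DESeq2 (adjusted p = 0.0793), limma-voom (0.0741), only the 8 libraries compared (0.131), and without PF382 (0.0819), TLOm1 (0.198) or HH (0.12), with log2 changes between -2.18 and -1.57. Since PAGE2B and PAGE2 share sequence, their sum was also taken, at 16, 9, 35 and 3 counts with the combination and 35, 62, 135 and 9 with azacitidine alone. The sum fell as well (log2 change -1.75 ± 0.51, adjusted p = 0.0471). PAGE4 moved the other way, with 17, 10, 1 and 0 counts with the combination and 3, 6, 0 and 0 with azacitidine, and did not pass (1.71 ± 0.58, adjusted p = 0.0957). GAGE1 had 2, 43, 36 and 0 counts with the combination and 2, 29, 8 and 0 with azacitidine (1.17 ± 0.52, adjusted p = 0.212).

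**Figure D2:**
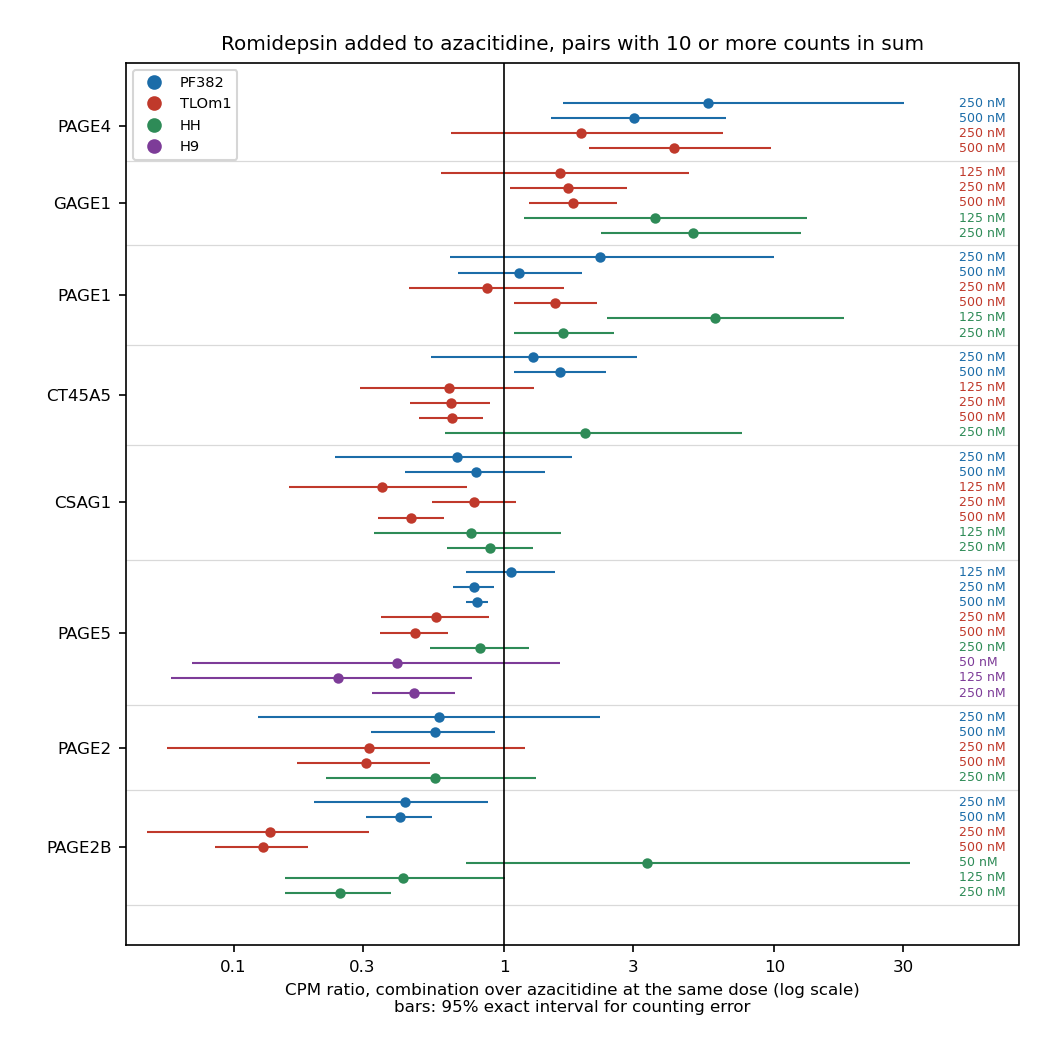
Ratio of CPM in the combination to azacitidine alone at the same dose and in the same line (log scale), for each pair with at least 10 counts over its 2 libraries, with 95% exact intervals for counting error and 1 library on each side. PAGE4 (pairs in PF382 and TLOm1 only) and GAGE1 (pairs in TLOm1 and HH only) lay above 1 in every pair drawn. PAGE2 lay below 1 in every pair, as did PAGE2B in all but HH at 50 nM.

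Each pair of libraries at 1 dose in 1 line was also compared by counting error alone, with 1 library on each side and no replicate. Pairs at several doses of a line are not replicates either. How many of all symbols lay beyond such intervals was not counted, so the tallies below do not set these symbols apart from others. PAGE2B lay below 1 beyond its interval in 5 of 7 pairs and above in none, and in TLOm1 at 500 nM it had 30 counts with romidepsin and 285 without, a ratio of 0.129 with an interval of 0.0851 to 0.188. PAGE5 lay below in 6 of 9 pairs and above in none, with 46 and 123 counts in H9 at 250 nM, a ratio of 0.466 with an interval of 0.325 to 0.659. GAGE1 lay above in 4 of 5 pairs, all from TLOm1 and HH, and below in none. It lay farthest in HH at 250 nM, where 36 counts stood against 8, a ratio of 5.01 with an interval of 2.29 to 12.5. PAGE1 lay above in 3 of 6 pairs and PAGE4 in 3 of 4, none below, with the PAGE4 pairs all from PF382 and TLOm1. CSAG1 lay below in 2 of 7 pairs and above in none. CT45A5 lay below in TLOm1 at 250 and 500 nM and above in PF382 at 500 nM, where it had 71 counts with romidepsin and 46 without.

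The makeup of the PAGE sum differed between azacitidine libraries with and without romidepsin in PF382, TLOm1 and HH, again by counting error alone. In TLOm1, PAGE2B took 12.9% of the PAGE counts with romidepsin (Wilson 95% interval 9.59 to 17.0%) and 44.3% without (40.8 to 47.8%), summed over 3 azacitidine doses. PAGE1 took 32.2% with romidepsin (27.2 to 37.5%) and 11.1% without (9.10 to 13.6%). In HH, PAGE1 took 45.4% with romidepsin (38.3 to 52.6%) and 16.5% without (12.6 to 21.3%), and PAGE2B took 23.5% (17.9 to 30.1%) and 52.7% (46.8 to 58.6%). In PF382, PAGE5 took 83.2% with romidepsin (81.1 to 85.2%) and 80.9% without (78.9 to 82.7%), and PAGE2B took 7.04% (5.75 to 8.61%) and 13.0% (11.4 to 14.7%). PAGE5 took 32.2% with romidepsin and 31.7% without in TLOm1, 23.5% with and 22.3% without in HH, and 93.0% with and 91.3% without in H9, with intervals that overlap in each line. These intervals cover counting error only, since reads without molecular identifiers are not independent molecules.

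**Figure D3:**
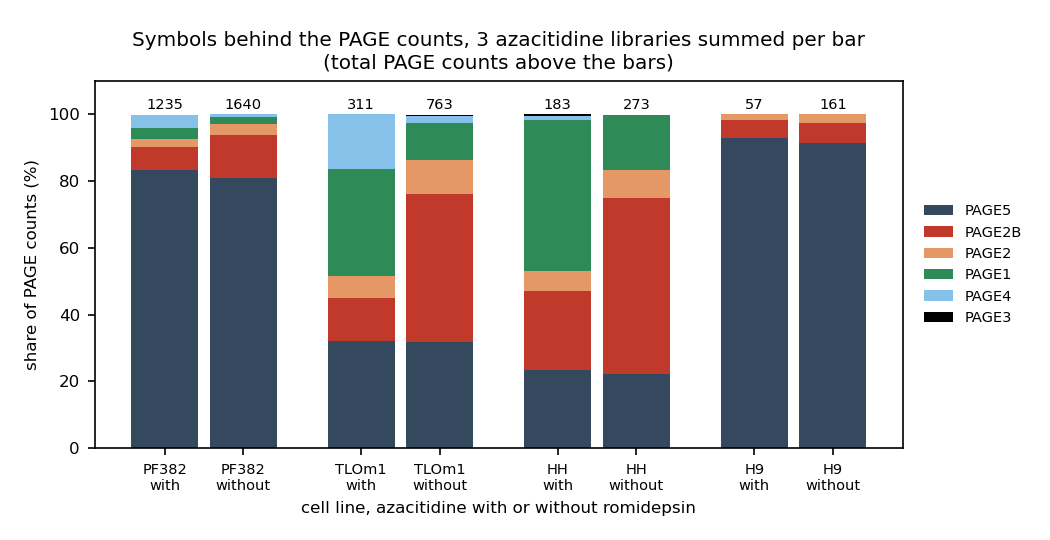
Share of the PAGE counts (%) that fell on each PAGE symbol, for azacitidine libraries with romidepsin (left bar) and without (right bar) in each line, 3 doses summed per bar, with the total PAGE counts above. PAGE2B took less of the bar with romidepsin in PF382, TLOm1 and HH, and PAGE1 and PAGE4 took more. For PAGE1 in PF382 and PAGE4 in HH (2 counts with romidepsin, 0 without) the Wilson intervals overlap. In H9 PAGE2B took 5.26% with romidepsin and 6.21% without, and PAGE1 and PAGE4 had no count.

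SPANX genes, named for a sperm protein of the nucleus, gave counts of 4, 12 and 20 in TLOm1 with the combination at 125, 250 and 500 nM, against 2, 1 and 2 with azacitidine alone. SPANXN1 and SPANXN3 took 31.9% of the 47 SPANX counts each and SPANXC 23.4%, and SPANXN3 was counted in TLOm1 combination libraries alone, with 3, 4 and 8 counts. The ratio at 500 nM was 12.2 with an interval of 2.97 to 108, on 1 library each, and the family did not pass the test across lines (2.96 ± 1.46, adjusted p = 0.271). XAGE counts fell on XAGE5 (37) and XAGE3 (5), and were 2, 7 and 3 with the combination against 9, 8 and 7 with azacitidine alone at the highest dose of PF382, TLOm1 and HH. CT47B1 had 1 and 3 counts in TLOm1 at 250 and 500 nM of azacitidine alone, and 11 CT47A symbols had none.

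Symbols at 0 in all 32 libraries were GAGE13, GAGE2D, GAGE12I, GAGE2C, GAGE12C, GAGE12D, GAGE12E, GAGE12F and GAGE12G in GAGE, XAGE1A to XAGE1E, XAGE2 and XAGE2B in XAGE, CT45A2 and CT45A3, CT47A1 to CT47A11, and SPANXB1, SPANXB2, SPANXA1, SPANXA2, SPANXN2 and SPANXN4. They were set beside how much sequence a copy has to itself, as the share of windows of 50 bases along its GENCODE release 29 transcripts that occur in no other gene's transcripts. Of 54 symbols found there, 19 had no such window, and 17 of these were at 0 with 3 counts among the other 2. The remaining 35 symbols had some, and 25 of them held 6463 counts. GAGE1 had 87.1% of its windows to itself and GAGE2A 14.8%, PAGE2B had 47.7% and PAGE2 61.4%, and CT45A5 had 8.36%. PAGE1 and PAGE4 had 100%. Windows of 75 bases gave the same division of symbols. Neither the read length nor the treatment of reads that match several copies is stated in those sources that were used, so a symbol at 0 is not shown to be silent, and the part of shared reads in the zeros was not tested.

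**Figure D4:**
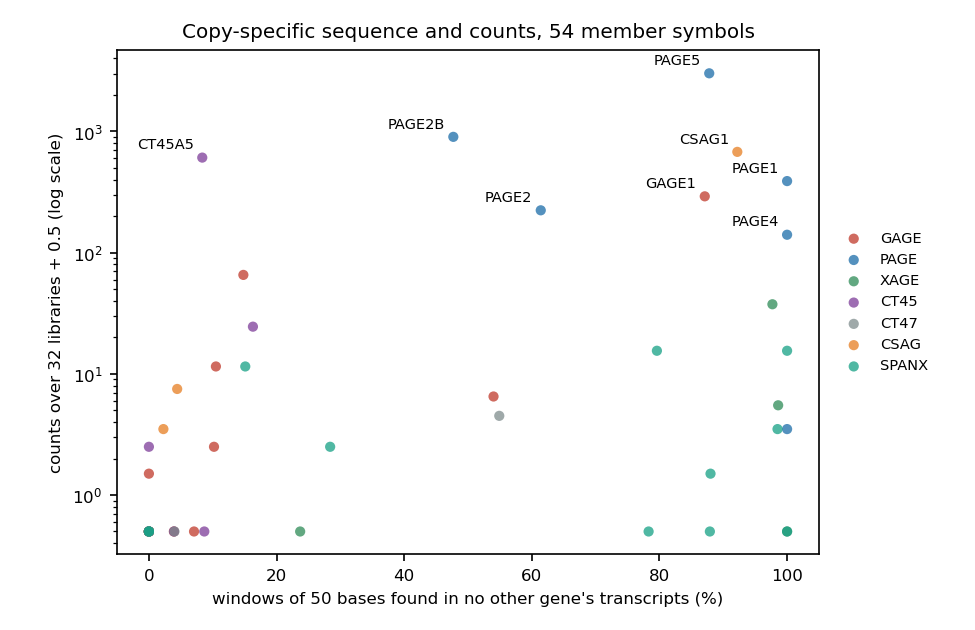
Counts over the 32 libraries + 0.5 (log scale) against the share of 50-base transcript windows found in no other gene (%), 1 point per symbol for the 54 symbols matched, coloured by family, with symbols of 100 or more counts named. Of the 19 symbols at 0% on the x axis 17 had no count, and of the named symbols CT45A5 alone lay under 40%.

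Other cancer/testis antigen genes, mostly X-linked, were counted from a list of 51 (MAGEA, MAGEB, MAGEC, SSX, CTAG and others), of which 37 passed the filter, some of them through their counts in azacitidine libraries alone, so these counts are no share of the list. Of these, 22 were called higher with azacitidine at 250 nM, where 3.85% of all symbols were, and 22 with the combination, where 14.2% were, none lower in either, and none was called in either direction for romidepsin alone or for the combination against azacitidine. Per doubling of azacitidine 36 of the 37 rose, where 16.5% of all symbols were called higher. By smallest adjusted p these were MAGEA4 (2.80 ± 0.15), SSX3 (2.26 ± 0.16), MAGEA3 (2.11 ± 0.16) and TEX11 (2.14 ± 0.16), with adjusted p of at most 2.09e-08. Of 20 genes that regulate germline genes or set DNA methylation, 2 were higher with azacitidine at 250 nM, against 3.85% of all symbols. These were CTCFL (fitted log2 change 5.81 ± 0.73 against few untreated counts and so no bound, adjusted p = 4.87e-05), the testis relative of CTCF and itself a cancer/testis gene, and UHRF1, which guides DNMT1 to replicating DNA (0.48 ± 0.13, adjusted p = 0.0271). With the combination 4 were higher and 6 lower than in untreated cells, where 2530 of all 17801 symbols were higher and 1557 lower. DNMT3B, a de novo DNA methyltransferase, was 2.05 ± 0.37 higher on the log2 scale (adjusted p = 0.000570), E2F6, a repressor of germline genes, was 0.53 ± 0.12 higher (adjusted p = 0.00326), and SETDB1, a histone H3 lysine methyltransferase, fell by 0.34 ± 0.07 (adjusted p = 0.00213).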

How the data were processed

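Per the labels' protocols, RNA came from Qiagen RNeasy columns, libraries were read on a NextSeq 500, and both rRNA depletion and the TruSeq Stranded mRNA kit are named. The deposited values are counts of reads per gene symbol, 1 table per library, as the file headers and whole-number values show. STAR, DESeq2, limma and GRCh37.p2 are named without versions or steps, per the submitters' processing notes. No source used here gives the counting tool, its annotation or whether it used strand, so overlapping and antisense genes are uncertain. 1 PF382 title misspells the line, and the cell line label was followed.

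Members were taken by a rule on symbols, and members, lists and tests were chosen with earlier results of these data known. Named genes were all family sums, up to 4 symbols per family with at least 10 counts in a library, and every member called. CPM is the count over the library total. Tests used edgeR 4.0.16 (quasi-likelihood, TMM scaling, filterByExpr with a minimum count of 10, robust, Benjamini-Hochberg adjusted p under 0.05) in R 4.3.3 on all 32 libraries, with a term for each treatment and dose and for each cell line. Family sums replaced their members in a second table. The dose fit had an intercept for each line with and without either drug and a slope on log2 dose (15 residual degrees of freedom). Lines are the replicates, so in the fit of treatments p-values measure how far changes differ between these lines, pooled over all groups. In the dose fit and the fits within a line they rest largely on scatter between doses within a line. No repeat culture is labelled. Same-line libraries paired: in 60 of 60 line pairings the correlation of deviations from group means was over 0.1 (0.860 to 0.973), and the pairing comes from the origin of the cells. Scripts were tested on simulated data with changes in well-counted genes only, so recovery at counts as low as those of most members was not covered. Ratios carry 95% exact intervals, shares Wilson intervals. Alternatives were DESeq2 1.42.0, limma 3.58.1 (voom), other scalings and filters, no block, fewer libraries, doses or lines, and other sums. Python 3.11.15, pandas 2.3.3, SciPy 1.17.1, Biopython 1.88 and matplotlib 3.10.9 were used for the rest.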

Additional observations from a re-analysis of the deposited data

Results flagged for a closer look

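Among 19 groups of 4 lines tested for a value standing apart by Dixon's test, 4 were picked out. Groups were tested only where the highest library had at least 10 counts, on CPM that held zeros, and the same lines recur in them. The usual rate of 1 in 20 for this test therefore does not hold here. In each of the 4 picked out TLOm1 was the highest line. The CT45 sum in TLOm1 was 0.8634 CPM with azacitidine at 125 nM, where the next line had 0.1175 CPM, and 4.76 CPM at 250 nM, where the next had 0.5095 CPM. In the combination at 125 nM it was 0.5779 CPM in TLOm1 and 0.04658 CPM in the next line. The SPANX sum in the combination at 250 nM was 0.5706 CPM in TLOm1 and 0 CPM in the other lines. There is 1 library per line and condition, so a line and a library cannot be told apart here.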

How the results depend on the processing

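With only the libraries compared, 0 member symbols and 0 families were called for azacitidine and for the combination against untreated cells, against 7 and 4 in each. Without the cell line as a replicate block 0 symbols and 1 family were called in each, and no symbol was called for the combination against azacitidine. Leaving out 1 line at a time gave 3 to 7 symbols and 2 to 4 families for azacitidine (fewest without TLOm1), 5 to 8 symbols for the combination, and 0 to 1 for the combination against azacitidine, where DESeq2, limma-voom and only the libraries compared gave 0 and the call was lost without PF382, TLOm1 or HH. Calls over all symbols fell as well with a line left out. They were 441 to 678 for azacitidine against 1066 with all lines, and 2588 to 3116 against 4087 for the combination. For the combination against azacitidine they were 202 to 627 against 1010. Without the top member only GAGE and PAGE had enough counts to be tested, and 1 of these (PAGE) was called for azacitidine, 1 (PAGE) for the combination and 2 per doubling, and sums over subfamilies gave 7, 1 and 8 for the combination, the combination against azacitidine and per doubling. Log2 changes that turned sign were all short of the threshold. For romidepsin alone, leaving out 1 line at a time gave -0.98 (without HH) to 0.41 (without H9) for PAGE, -1.60 (without HH) to 0.021 (without H9) for PAGE2, and -0.49 (without HH) to 1.00 (without H9) for PAGE2B. For the combination against azacitidine CT45 was 0.00454 with DESeq2 and -0.40 (without HH) to 0.42 (without TLOm1), and CT45A5 was 7.12e-05 with median-of-ratios scaling, 0.00231 with total counts, 0.13 with DESeq2 and -0.32 (without HH) to 0.60 (without TLOm1). SPANX per doubling was -0.10 with DESeq2, and the departure from additivity was -0.50 (without HH) to 0.46 (without TLOm1) for CT45 and -1.06 (without H9) to 0.20 (without HH) for PAGE. Of the other values 709 kept direction and side of the threshold, 54 lost and 6 gained a call; the cause was not tested. At 0.0923 to 0.186 CPM for 3 counts, most member symbols lay too low for a change to be detectable.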
